A study of Mus musculus with 12 samples.

Results

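Chromatin accessibility was examined at 10 genes of the heat shock chaperone and disaggregase system in mouse cortical neurons exposed to alpha-synuclein fibrils. The genes were Hspa1a, Hspa1b and Hspa8 (HSP70 chaperones), Hspa4 and Hsph1 (HSP110-type partners of HSP70), Dnajb1 and Dnajb6 (J-domain co-chaperones), Hsp90aa1 (the inducible HSP90), Bag3 (an HSP70 co-chaperone) and Hsf1 (the master regulator of the heat shock response). The peaks of all 12 libraries were merged wherever they shared at least 1 bp, and every merged region was taken that lay in the body of one of these genes or within 10 kb upstream of one of its transcription start sites. This gave 67 of the 263785 regions of the whole series.

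ATAC-seq uses the transposase Tn5 to cut and tag open DNA, so that sequenced fragments pile up where chromatin is accessible. All 12 libraries came from primary cortical neurons of embryonic day 18 C57BL/6 WT embryos. Each group had 3 libraries, and the exposure of 7 days was to PBS as vehicle, to pre-formed fibrils of alpha-synuclein (PFF), to PFF plus the LRRK2 kinase inhibitor MLi-2, or to PFF plus antisense oligonucleotides that lower Rab5a and Rab5b, GTPases of early endosomes (Rab5 ASO), and the comparisons ask whether accessibility changed with PFF and with either treatment added to it. The inhibitor was given over the final 5 days, the oligonucleotides over the final 3 days, and all libraries carry the label of batch 1. None of these 4 groups received MLi-2 or the ASO without fibrils, and no control oligonucleotide is named for the PFF group. In both combined groups the free-text descriptions put PBS where the titles and treatment labels put PFF, and the titles were followed here. The study counts a pregnancy as an independent replicate and spreads its cultures over the groups, while the labels tie no library to a pregnancy, so p-values measure the spread between these libraries.

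Heat shock chaperones bind unfolded or aggregated proteins and return them to solution or pass them on for degradation. HSP70 works with a J-domain protein that delivers the substrate and an HSP110 protein that exchanges the nucleotide, and this trio can take apart amyloid fibrils, including those of alpha-synuclein, in the test tube. HSF1 is held inactive in unstressed cells and, after heat or other proteotoxic stress, binds repeats of the letters GAA in alternating orientation, the heat shock element, upstream of the inducible genes.

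Each peak list held 137417 to 184717 peaks, and the median pileup at a peak's summit was 16 to 18 per library. The sources do not say whether the pileup counts fragments or single read ends, and it is given as fragments throughout. The number of member regions with a peak was 43 ± 4 with PBS, 42 ± 1 with PFF, 40 ± 2 with PFF+MLi-2 and 45.3 ± 4.16 with PFF+Rab5 ASO (SD, n = 3 each). The start site regions of 11 of 11 neuronal markers were called in all 12 libraries, as were those of 3 of 4 astrocyte and 2 of 4 oligodendrocyte markers, against 0 of 4 microglial markers, 0 of 2 endothelial markers and 0 of 3 markers of other tissues. Called in fewer libraries were Aqp4 (10), Csf1r (7), Ins2 (5), P2ry12 (3), Alb (3) and Cldn5 (1). Mean percentiles of fold within a library's list, where called, ran from 14.3 to 98.7 for neuronal and from 34.7 to 86.7 for astrocyte markers. Glial nuclei in the cultures could not be told apart from neuronal ones, and in bulk nuclei a smaller share of cells with an open site and less opening per cell cannot be told apart.

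The promoter letters of the stress-inducible members are shown first, with letters of the heat shock element marked, because HSF1 acts through that element. Sequences are from RefSeq on GRCm38.p6, where windows from 250 bases before to 50 after a start were at hand for 7 of the 10 genes, Hspa8, Hsp90aa1 and Hsf1 being the other members. The windows were searched on both strands for GAANNTTC, which reads the same on both, and for the longer GAANNTTCNNGAA, which contains the shorter one. The short form was in 7.86% and the long form in 0.603% of all 32851 windows. Hspa1a and Hspa1b, the paired inducible HSP70 genes, each held the short form starting 104 bases before the start. The 150 bases before their starts, on the minus strand at chr17:34972157-34972306 and chr17:34959239-34959388 and with the short form in capitals, differ at 1 position.
Hspa1a: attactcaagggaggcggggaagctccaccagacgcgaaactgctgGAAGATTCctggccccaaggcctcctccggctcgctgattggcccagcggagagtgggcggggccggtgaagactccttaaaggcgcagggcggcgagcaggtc
Hspa1b: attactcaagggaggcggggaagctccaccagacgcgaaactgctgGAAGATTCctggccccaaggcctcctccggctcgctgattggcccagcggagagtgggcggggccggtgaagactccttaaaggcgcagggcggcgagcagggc

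The long form occurred in Dnajb6, starting 46 and 127 bases before RefSeq starts of the gene, and in Hsph1, within the transcribed bases of the window. Bag3 held the short form within its transcribed bases. The stretches shown overlap annotated exons, that of Dnajb6 included, so its match is not upstream of every annotated start. Each match is shown as 30 bases with the matched letters in capitals, for Dnajb6 at chr5:29735844-29735873 (plus strand), for Hsph1 at chr5:149636279-149636308 (minus strand) and for Bag3 at chr7:128523603-128523632 (plus strand).
Dnajb6: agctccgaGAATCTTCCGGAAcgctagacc
Hsph1: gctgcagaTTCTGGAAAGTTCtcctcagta
Bag3: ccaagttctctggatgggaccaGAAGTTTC

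Neither form was in the windows of Hspa4 or Dnajb1. A match describes letters and is not a site of binding, and the absence of one says only that these letters are not in the window. In the 200 bases around the summits of the 27 member regions called in every library, the short form occurred in 1 (3.70%), against 4.20% of the 72408 such regions on assembled chromosomes. In that region, at Dnajb6, it was part of the long form, which 0.217% of the 72408 held.

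All 10 genes had an open start site in all 12 libraries. A start site region is the region within 1 kb of an annotated start with the highest mean rank, and such a region was called in all 12 libraries for 62.8% of 21911 protein-coding genes. Heights are given as the percentile of the peak's fold enrichment within its own library's list, so that 90 means that 90% of that library's peaks were no higher. The mean over 12 libraries ran from 79.7 at Bag3 to 97.0 at Dnajb6, with a median of 91.3 over the 10 genes, against 92.4 over the protein-coding genes with a start site region in every library. Bag3 lay below the lower quartile of these genes, 82.4, and the other 9 members lay between the quartiles.

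**Figure D1:**
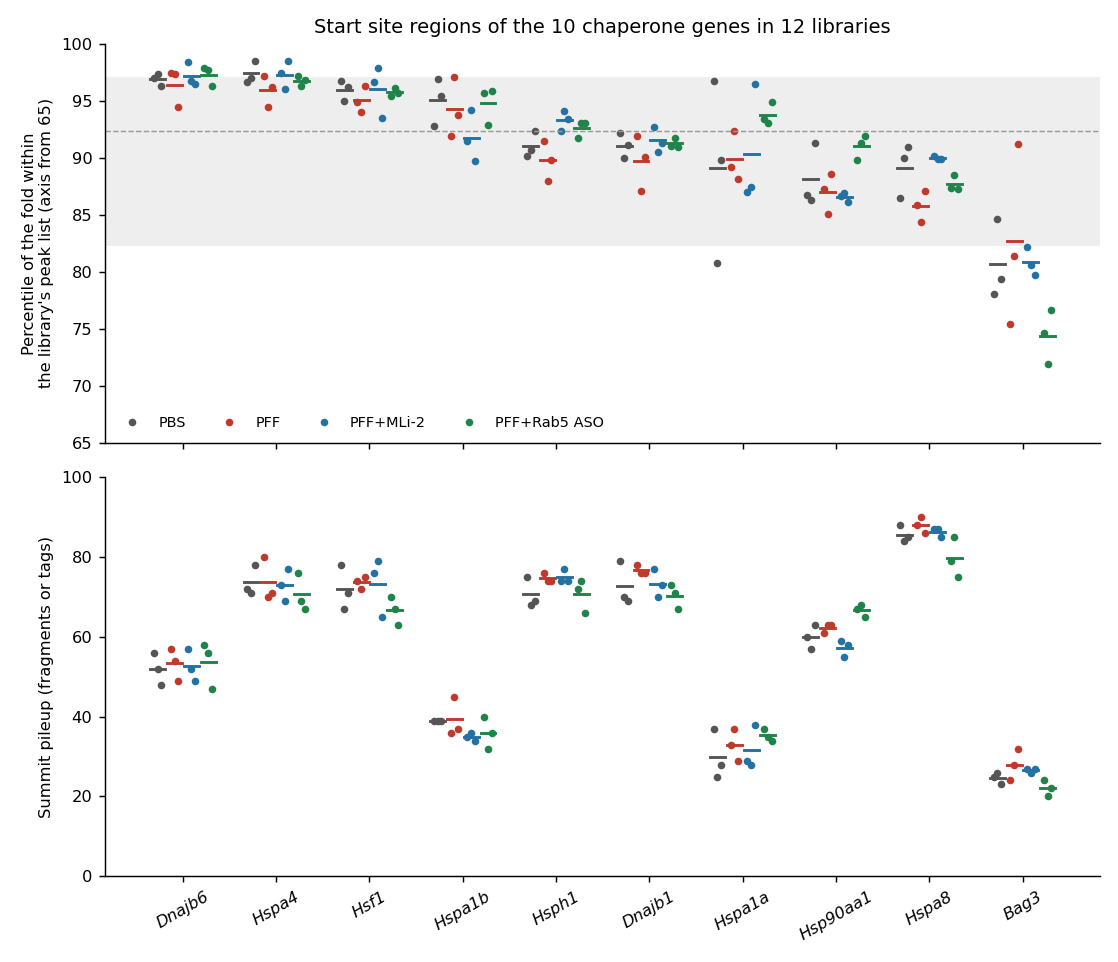
Start site regions of the 10 genes in the 12 libraries, ordered by mean percentile. Each dot is 1 library and each short bar a group mean (n = 3); the upper panel gives the percentile of the fold within the library's peak list (axis from 65), with the median (dashed, 92.4) and the interquartile range of all protein-coding start site regions shaded, and the lower panel the fragment pileup at the summit. Bag3 is lowest on both scales, while Hspa8 is near the bottom by percentile and highest by pileup.

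The HSP70 chaperones were examined first. At Hspa1a the start site region (chr17:34971985-34972292, GRCm38) stood at percentiles 96.8, 80.8 and 89.8 in the PBS libraries, 89.2, 92.4 and 88.2 with PFF, 87.0, 87.4 and 96.5 with PFF+MLi-2 and 93.4, 93.1 and 94.9 with PFF+Rab5 ASO. The PBS libraries alone spanned the whole range, and the PFF+Rab5 ASO values lay above the PFF values without overlap. At Hspa1b (chr17:34959060-34959780) the values were 92.8, 97.0 and 95.4 in the PBS libraries, 91.9, 97.1 and 93.8 with PFF, 91.5, 94.2 and 89.7 with PFF+MLi-2 and 95.7, 92.9 and 95.9 with PFF+Rab5 ASO, and the groups overlapped in all 5 comparisons. Of the 32-base words in the start site regions, 66.8% at Hspa1a and 39.9% at Hspa1b occur more than once in GRCm38, so fragments from these near-identical genes may have been placed on either copy, and their values are uncertain. Hspa8, which encodes the constitutive HSC70, had its start site region at chr9:40800651-40801841. Its percentiles were 86.5, 90.0 and 91.0 in the PBS libraries, 85.8, 84.4 and 87.1 with PFF, 90.2, 89.9 and 89.9 with PFF+MLi-2 and 87.3, 88.5 and 87.3 with PFF+Rab5 ASO. The 3 PFF values were below all PFF+MLi-2 and all PFF+Rab5 ASO values and overlapped the PBS values.

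The 2 scales ranked Hspa8 differently. Its summit pileup was 84.9 ± 4.14 fragments (SD over 12 libraries), the highest of the 10 genes, over a local background of 8.52 fragments, whereas Hspa1a had 32.5 ± 4.48 over 2.40. Because the fold divides the pileup by the local background, the Hspa8 start site ranked at a mean percentile of 88.2, below Hspa1a at 90.8. A small region beside it, chr9:40799997-40800118, was called in all 12 libraries with 23 to 34 fragments at the summit, yet a background of 7.49 to 8.85 fragments left it at percentiles 0.294 to 5.59, the lowest of the 27 regions called everywhere.

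HSP110 proteins recharge HSP70 during disaggregation. At Hspa4 the start site region (chr11:53300133-53300919) had percentiles of 96.7, 97.1 and 98.5 in the PBS libraries, 97.2, 94.5 and 96.2 with PFF, 97.5, 96.0 and 98.5 with PFF+MLi-2 and 97.2, 96.3 and 96.9 with PFF+Rab5 ASO. At Hsph1, the heat-inducible HSP110 gene (chr5:149635636-149636893), they were 90.2, 90.7 and 92.3 in the PBS libraries, 91.5, 88.0 and 89.8 with PFF, 92.3, 94.2 and 93.4 with PFF+MLi-2 and 91.8, 93.0 and 93.0 with PFF+Rab5 ASO. Hspa4 overlapped between the groups in all 5 comparisons, while at Hsph1 all 3 PFF values lay below those of PFF+MLi-2 and of PFF+Rab5 ASO and overlapped PBS.

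J-domain proteins hand substrates to HSP70. Dnajb1, the J-protein of the in vitro disaggregase (chr8:83607725-83608850, shared with the start of Tecr), had percentiles of 92.2, 90.0 and 91.1 in the PBS libraries, 91.9, 87.1 and 90.1 with PFF, 92.7, 90.5 and 91.3 with PFF+MLi-2 and 91.1, 91.8 and 90.9 with PFF+Rab5 ASO. Dnajb6, which suppresses the nucleation of amyloid (chr5:29735519-29736471), had 97.1, 97.4 and 96.3 in the PBS libraries, 97.5, 97.3 and 94.4 with PFF, 98.4, 96.7 and 96.5 with PFF+MLi-2 and 97.9, 97.7 and 96.3 with PFF+Rab5 ASO. Both overlapped between the groups in every comparison, with an SD of 1.46 and 1.02 percentile points over the 12 libraries. Percentiles near the top of a list have little room to vary. The summit pileup ran from 67 to 79 fragments at Dnajb1 and from 47 to 58 at Dnajb6.

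Hsp90aa1, Bag3 and Hsf1 complete the set. HSP90 matures client proteins and holds HSF1 in check, BAG3 steers HSP70 clients to autophagy, and HSF1 activates the inducible genes. The Hsp90aa1 start site region (chr12:110695681-110696910) lay at an internal cluster of starts, centred 6432 bp downstream of the outermost one, with percentiles of 86.7, 86.3 and 91.3 in the PBS libraries, 87.3, 85.1 and 88.6 with PFF, 86.7, 86.9 and 86.2 with PFF+MLi-2 and 89.8, 91.3 and 92.0 with PFF+Rab5 ASO. At Bag3 (chr7:128523407-128523682) they were 78.1, 84.6 and 79.4 in the PBS libraries, 75.5, 81.4 and 91.2 with PFF, 82.2, 80.6 and 79.8 with PFF+MLi-2 and 74.6, 72.0 and 76.6 with PFF+Rab5 ASO. The PFF+Rab5 ASO values were above all PFF values at Hsp90aa1 and below all PBS values at Bag3. Hsf1 (chr15:76477011-76477948, shared with the divergent start of Bop1) had 96.7, 95.0 and 96.2 in the PBS libraries, 94.9, 94.0 and 96.3 with PFF, 96.7, 97.9 and 93.5 with PFF+MLi-2 and 95.4, 96.2 and 95.7 with PFF+Rab5 ASO, with the groups overlapping throughout.

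The order of the 10 levels was loose. Between neighbours in that order the ranges over the 12 libraries overlapped in every case, and the higher gene led in 6 to 9 of 12 libraries for 8 of the 9 neighbouring pairs. The exception was the step down to Bag3, where Hspa8 led in 11 of 12 libraries by 8.50 ± 5.26 percentile points (SD).

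**Figure D2:**
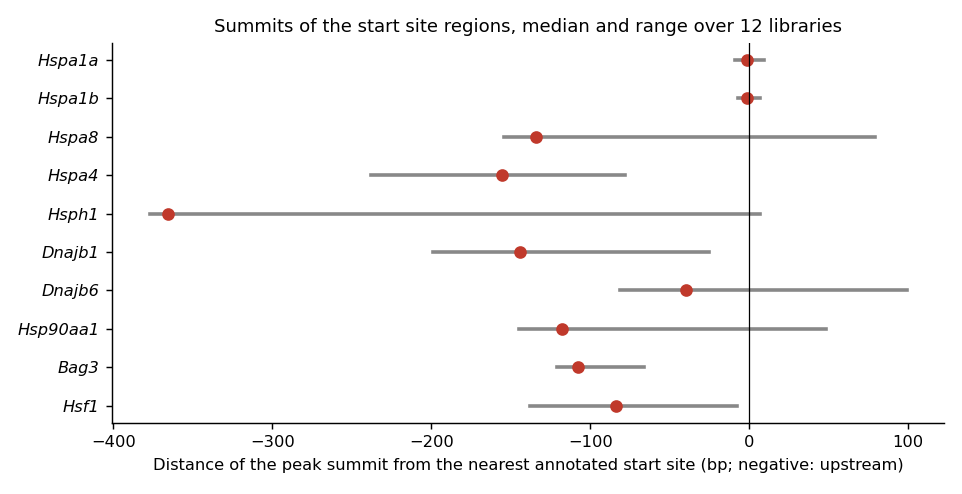
Distance in bp from the peak summit to the nearest annotated start site of the gene, with the median (dot) and the range over 12 libraries (line); negative values are upstream. The 2 inducible HSP70 genes have summits within 9 bp of the start, and the other 8 have their median upstream.

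Summit positions differed in their medians, with ranges that overlapped between genes. At Hspa1a the summits lay between -9 and 9 bp from the start and at Hspa1b between -7 and 7 bp, each with a median of -1.5 bp. In the remaining genes the median summit was upstream, from -40 bp at Dnajb6 to -365.5 bp at Hsph1, and at Hsph1 it varied by 384 bp between libraries. The ranges of Hspa8 (-154 to 79 bp), Dnajb6 (-81 to 99 bp), Hsp90aa1 (-145 to 48 bp) and Hsph1 (-377 to 7 bp) reached into those of Hspa1a and Hspa1b, and the range of Hsf1 (-138 to -8 bp) into that of Hspa1a. The median GC content of the 200 bases around the summit was 66% over the 10 start site regions and 52% over all regions called in every library.

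No start site region passed the test in any comparison, with 0 of 10 called in each. Among the 12487 start site regions of protein-coding genes 0.593% were called with PFF+Rab5 ASO against PFF, 0.240% with PFF+Rab5 ASO against PBS, 0.456% over the 4 groups and 0% in the other comparisons, so the members' count was near this background. Height was tested with limma on normal scores of each library's ranks over the 72465 regions called in all 12 libraries, with Benjamini-Hochberg adjustment over all of them, and an effect is a difference between group means of this score. With PFF against PBS the start site effects ran from -0.26 at Hspa4 to 0.09 at Bag3 and the lowest adjusted p was 0.753. With PFF+MLi-2 against PFF they ran from -0.18 at Hspa1b to 0.36 at Hspa8 (lowest adjusted p = 0.503), and with PFF+Rab5 ASO against PFF from -0.46 at Bag3 to 0.29 at Hspa1a (lowest adjusted p = 0.371). Against PBS the effects lay between -0.28 and 0.23 for PFF+MLi-2 (lowest adjusted p = 0.952) and between -0.36 and 0.20 for PFF+Rab5 ASO (lowest adjusted p = 0.436). The 95% intervals of the single start sites stayed within -0.75 to 0.75 for PFF against PBS and within -1.06 to 0.73 for PFF+Rab5 ASO against PFF. These intervals show the precision that 3 libraries a group allow.

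The signs of the start site effects are given beside those of start sites in general. With PFF against PBS 9 of 10 were below 0, with a median of -0.12, and among the 12487 start site regions of protein-coding genes 33.5% were above 0 and the median was -0.08. With PFF+MLi-2 against PFF 8 of 10 were above 0 (median 0.19), against 67.2% of all start site regions (median 0.10). With PFF+Rab5 ASO against PFF 9 of 10 were above 0 (median 0.09), against 61.4% (median 0.07). With PFF+MLi-2 against PBS 8 of 10 were above 0 (median 0.08), against 53.4% (median 0.01), and with PFF+Rab5 ASO against PBS 4 of 10 (median -0.07), against 47.2% (median -0.02). The comparisons share the PFF or the PBS libraries, so their signs are not independent of each other.

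**Figure D3:**
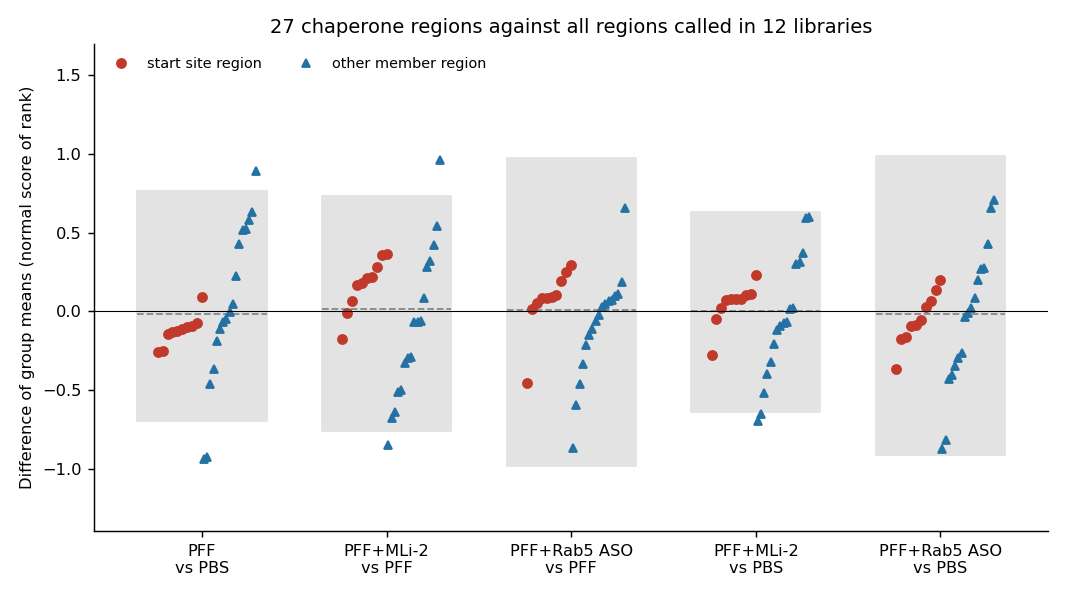
Difference between group means of the normal score of the rank, for the 10 start site regions (circles) and the 17 other member regions called in all 12 libraries (triangles) in 5 comparisons. Grey bands hold the middle 95% of all 72465 regions tested and dashed lines their median; the start sites lie close to 0 and no region passed the threshold.

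Of the 67 regions, 27 (40.3%) were called in all 12 libraries and 15 (22.4%) in 1 library, against 27.5% and 26.6% of all regions. Bag3 held the most, with 14 regions of which 4 were called everywhere, followed by Dnajb6 with 10 and 3 and Hspa8 with 9 and 2. Start site regions had a median width of 946 bp and the other 57 regions one of 156 bp. The 17 regions called everywhere outside the start site regions had mean percentiles from 2.73 to 96.1. The highest of these, chr17:34981722-34982279, lies 9844 bp upstream of Hspa1a and within 1 kb of a start of Lsm2.

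**Figure D4:**
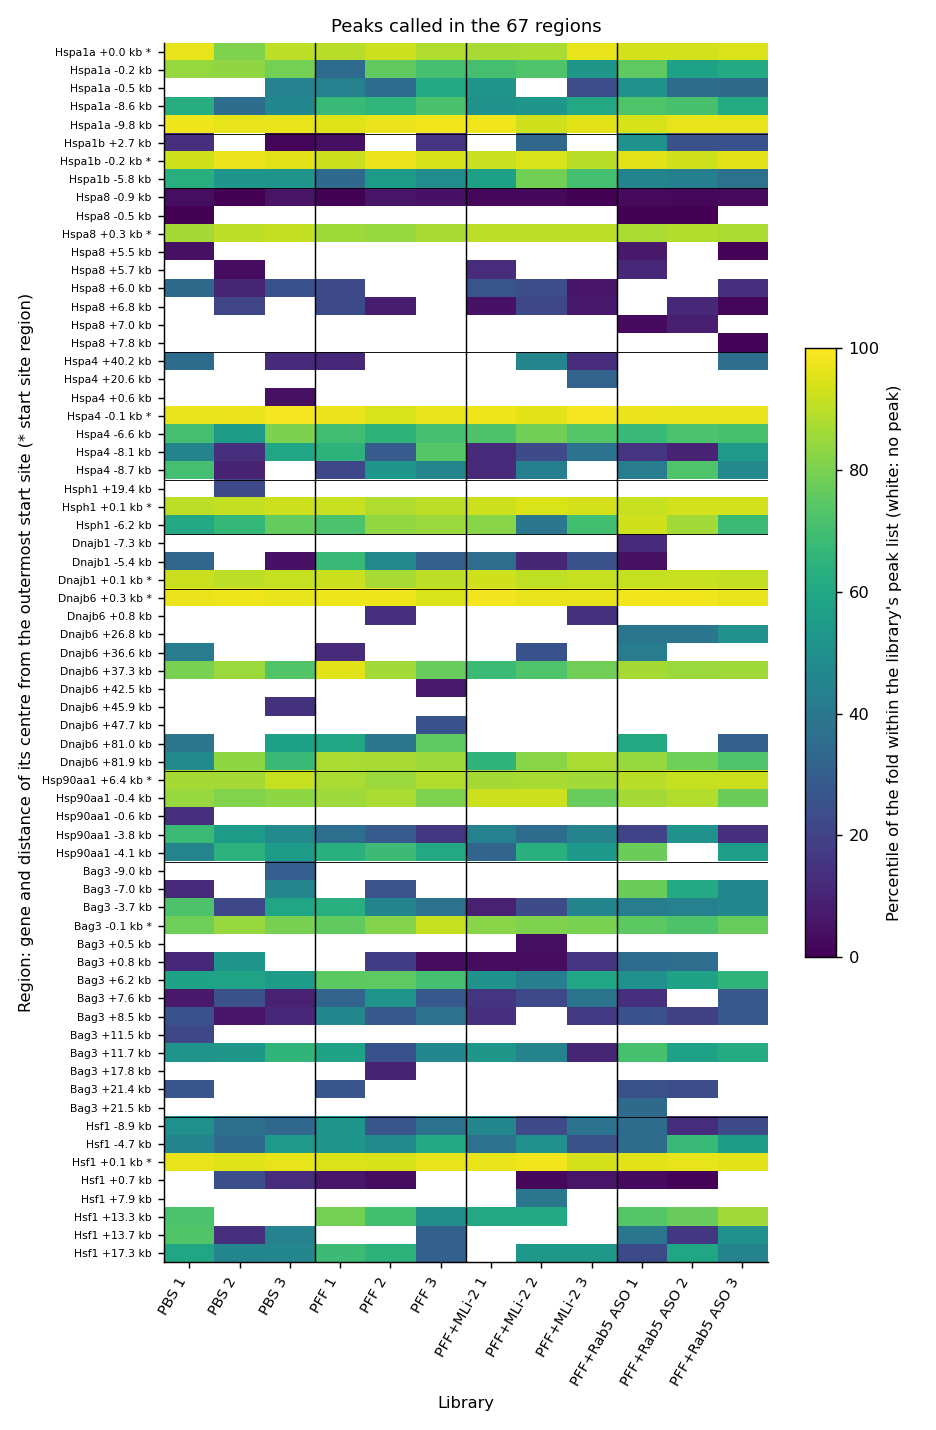
Peaks in the 67 regions (rows, with the distance of the centre from the gene's outermost start site in kb; * start site region) across the 12 libraries (columns). Colour gives the percentile of the fold within the library's list and white means that no peak was called; the 10 start site regions form unbroken bright rows, and 17 of the other 57 rows are also unbroken, at varied heights.

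With PFF against PBS no member region passed the limma test (0 of 27, with 5 at an unadjusted p under 0.05), and none did over the whole series (0% of 72465, with 7044, or 9.72%, at an unadjusted p under 0.05). The paper reports regions of changed accessibility between these groups with another method, DiffChIPL. Here ranks of peak fold were tested, on regions called in every library only, so the results are not alike in measure. Percentiles did not overlap between the groups at 5 of the 27 regions (18.5%), against 14.6% of all regions. Of the 59 member regions that either group had called at least once, 0 were gained, meaning called in 3 of 3 PFF and 0 of 3 PBS libraries, and 0 were lost, against 1.1% and 0.405% of all regions. The largest effect was -0.94 (SE 0.23, 95% interval -1.44 to -0.44, adjusted p = 0.253) at chr12:110706433-110706608, 3792 bp upstream of the outermost Hsp90aa1 start. Its percentiles were 68.3, 54.9 and 47.3 in the PBS libraries, 36.2, 28.5 and 16.2 with PFF, 43.8, 35.5 and 44.8 with PFF+MLi-2 and 20.2, 51.2 and 13.4 with PFF+Rab5 ASO. All PBS libraries stood above all PFF and all PFF+MLi-2 libraries, and with the Rab5 ASO 1 library lay inside the PBS range. Its 176 bases, on the plus strand, are printed because it had the largest difference between PFF and PBS.
Hsp90aa1 upstream: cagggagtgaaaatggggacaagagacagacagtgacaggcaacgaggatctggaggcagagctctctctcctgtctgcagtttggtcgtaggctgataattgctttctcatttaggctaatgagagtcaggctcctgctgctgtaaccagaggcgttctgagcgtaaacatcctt

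Just upstream of the Hspa1a start, chr17:34972297-34972513 is a shoulder that begins past the end of the start site region. Like that region it also lies within 1 kb of a start of Hspa1l, another HSP70 gene. Percentiles there were 84.1, 83.4 and 79.1 in the PBS libraries, 35.1, 75.6 and 70.6 with PFF, 70.3, 72.4 and 53.0 with PFF+MLi-2 and 75.3, 57.1 and 61.2 with PFF+Rab5 ASO. All 3 PBS libraries were above all 9 fibril-exposed ones, with effects of -0.93 (SE 0.36, 95% interval -1.72 to -0.13, adjusted p = 0.436) for PFF, -0.65 (SE 0.24, 95% interval -1.19 to -0.11, adjusted p = 0.841) for PFF+MLi-2 and -0.82 (SE 0.23, 95% interval -1.33 to -0.31, adjusted p = 0.0936) for PFF+Rab5 ASO, each against the same PBS libraries. Of its 32-base words 25.8% recur in the genome, and replicate 1 of PFF, at 35.1, was far below the other 2 PFF libraries. Without that library the effect of PFF was -0.46 (limma, adjusted p = 0.626). The summit pileup of the shoulder was 22 to 26 fragments with PBS and 15 to 25 in the rest.

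Higher percentiles with PFF than with PBS, short of the test's threshold, were found in introns of Dnajb6 and Bag3. The Dnajb6 region chr5:29817449-29817780 had percentiles of 48.0, 82.9 and 67.7 in the PBS libraries, 87.4, 86.7 and 85.4 with PFF, 65.1, 82.3 and 87.4 with PFF+MLi-2 and 84.0, 78.0 and 72.3 with PFF+Rab5 ASO. The 3 PFF libraries were above all PBS libraries, with an effect of 0.89 (SE 0.37, 95% interval 0.08 to 1.71, adjusted p = 0.47), and of 0.45 without replicate 1 of PBS. In an intron of Bag3, the region chr7:128529547-128530041, 6178 bp from the start, had percentiles of 58.1, 58.3 and 55.0 in the PBS libraries, 74.9, 75.0 and 70.0 with PFF, 51.3, 42.9 and 58.7 with PFF+MLi-2 and 50.5, 57.6 and 65.6 with PFF+Rab5 ASO. Here the PFF libraries stood above all 9 others. The effect was 0.58 (SE 0.21, 95% interval 0.12 to 1.04, adjusted p = 0.404) against PBS, and relative to PFF it was -0.68 (SE 0.21, 95% interval -1.15 to -0.21, adjusted p = 0.308) with PFF+MLi-2 and -0.60 (SE 0.22, 95% interval -1.10 to -0.10, adjusted p = 0.162) with PFF+Rab5 ASO. The summit pileup was 25 to 27 fragments with PFF and 16 to 21 in the other libraries. None of these differences passed the adjusted threshold, and the 3 comparisons rest on the same 3 PFF libraries. When peaks were merged only at 50 bp of overlap, the effects relative to PFF were -0.28 with PFF+MLi-2 and -0.19 with PFF+Rab5 ASO (limma, adjusted p = 0.793 and 0.799). The 200 bases around the median summit, chr7:128529607-128529806 on the plus strand, are shown because the PFF percentiles here did not overlap those of any other group.
Bag3 intron: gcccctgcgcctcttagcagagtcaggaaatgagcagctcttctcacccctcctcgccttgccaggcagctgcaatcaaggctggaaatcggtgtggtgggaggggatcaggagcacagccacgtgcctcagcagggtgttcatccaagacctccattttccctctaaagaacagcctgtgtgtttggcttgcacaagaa

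The fifth region without overlap, chr17:34980705-34980875, was singled out after its values were seen. It lies 8634 bp upstream of Hspa1a within 1 kb of a start of Lsm2, and its percentiles were 62.2, 35.4 and 46.5 in the PBS libraries, 67.3, 65.6 and 71.4 with PFF, 51.4, 52.4 and 60.2 with PFF+MLi-2 and 72.3, 71.1 and 61.6 with PFF+Rab5 ASO, higher in every PFF than in every PBS library, with an effect of 0.63 (SE 0.22, 95% interval 0.13 to 1.13, adjusted p = 0.404).

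With MLi-2 added to PFF, 0 of 27 member regions passed the limma test (3 at an unadjusted p under 0.05), and 0% of all regions did (8289, or 11.4%, at an unadjusted p under 0.05). Values did not overlap in 6 of 27 (22.2%), against 18.1% of all regions. Among 54 member regions with a peak, 0 were gained and 1 was lost (1.85%), against 0.374% and 1.64% of all regions, so the members' share was near the background. The lost region, chr5:29816618-29816773 in a Dnajb6 intron, was called in 3 of 3 PFF libraries at percentiles 58.6, 39.8 and 75.2 and in 0 of 3 PFF+MLi-2 libraries. It was also called in 2 of 3 PBS and 2 of 3 PFF+Rab5 ASO libraries, and 28% of its 32-base words recur in the genome. The 6 regions without overlap were the Bag3 intronic region, the Hspa1b upstream region described next, the start sites of Hspa8 and Hsph1, the region 8634 bp upstream of Hspa1a and, singled out after its values were seen, chr11:53306953-53307246, 6642 bp upstream of Hspa4, with an effect of 0.42 (limma, adjusted p = 0.468).

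The largest effect of MLi-2 was at chr17:34964824-34965240, 5794 bp upstream of Hspa1b, where percentiles were 63.0, 52.7 and 51.7 in the PBS libraries, 34.2, 54.4 and 48.5 with PFF, 57.0, 78.8 and 70.3 with PFF+MLi-2 and 45.2, 43.2 and 37.5 with PFF+Rab5 ASO. The PFF+MLi-2 libraries were all above the PFF libraries, with an effect of 0.96 (SE 0.28, 95% interval 0.33 to 1.59, adjusted p = 0.291). Over the 4 groups this region had the lowest adjusted p of the members (limma F test, adjusted p = 0.0606), followed by the Hsp90aa1 upstream region (adjusted p = 0.0977). In that test 0 of 27 member regions passed (4 at an unadjusted p under 0.05), against 3.5% of all regions (21.7% at an unadjusted p under 0.05). The 2535 regions behind that share became 609, 498 and 277 without replicate 1, 2 or 3 of PFF+Rab5 ASO, and 1587 and 1538 without replicate 2 or 3 of PFF. Among the alternatives run, this test passed for the Hspa1b region when heights were ranked by -log10 p (adjusted p = 0.0498) and without replicate 1 of PFF+MLi-2 (adjusted p = 0.0389), and for no other member region. Its bases chr17:34964824-34965012, on the plus strand, are shown because it came nearest to the threshold over the 4 groups.
Hspa1b upstream: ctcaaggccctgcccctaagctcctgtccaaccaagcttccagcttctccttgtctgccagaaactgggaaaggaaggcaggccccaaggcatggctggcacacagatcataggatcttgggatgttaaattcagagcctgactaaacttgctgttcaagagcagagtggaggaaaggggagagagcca

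The next largest MLi-2 effect was -0.85 (SE 0.39, 95% interval -1.72 to 0.02, adjusted p = 0.45) at chr11:53308413-53308639, 8069 bp upstream of Hspa4. Percentiles there were 44.9, 13.7 and 58.7 in the PBS libraries, 64.7, 28.6 and 73.7 with PFF, 11.8, 22.7 and 38.2 with PFF+MLi-2 and 14.9, 10.1 and 53.7 with PFF+Rab5 ASO, so the PFF libraries were themselves spread and the groups overlapped. Without replicate 3 of PFF the effect was -0.50, and without replicate 2 of PFF it was -1.28. With PFF+MLi-2 against PBS, 0 of 27 regions passed (2 at an unadjusted p under 0.05). Over the whole series 0% passed, while 4179 (5.77%) had an unadjusted p under 0.05. Percentiles at 2 of 27 (7.41%) did not overlap, against 10.6% of all regions. These were the Hspa1a shoulder and the Hsp90aa1 upstream region. Of 59 regions 0 were gained and 1 was lost (1.69%), against 0.225% and 0.577% of all regions. The lost one was chr15:76491040-76491154 in an intron of Hsf1, called in PBS at 72.9, 13.9 and 44.3, in 1 of 3 PFF libraries, in 0 of 3 PFF+MLi-2 libraries and in 3 of 3 PFF+Rab5 ASO libraries. It was not lost when peaks below a -log10 q of 5 were left out. An upstream region of Bag3, chr7:128519682-128520059, had the largest effect of this comparison at -0.70 (SE 0.38, 95% interval -1.55 to 0.15, adjusted p = 0.897), on percentiles of 72.2, 21.9 and 59.0 in the PBS libraries, 63.1, 45.3 and 37.7 with PFF, 9.16, 23.2 and 45.3 with PFF+MLi-2 and 42.0, 43.9 and 46.6 with PFF+Rab5 ASO, with overlapping groups. It was -0.43 without replicate 1 of PBS or of PFF+MLi-2 and -1.08 without replicate 2 of PBS.

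The pairwise comparisons with the Rab5 ASO had called regions in the series, and none of these was a member. The series counts fell whichever library was left out, and leaving out 1 also weakens the test. Relative to PFF 2772 regions were called, 0 without replicate 1 of PFF+Rab5 ASO, 333 to 995 without any 1 of the other libraries and 1671 with the replicate number as a replicate block. Relative to PBS 1184 were called, 0 to 35 without any 1 library and 0 with the block. With PFF+Rab5 ASO against PFF 0 of 27 member regions passed the limma test (3 at an unadjusted p under 0.05), against 3.83% of all regions (21.1% at an unadjusted p under 0.05). Percentiles did not overlap at 6 of 27 (22.2%), against 25.8%. Against PBS 0 of 27 passed (3 at an unadjusted p under 0.05), against 1.63% of the series (18.7% at an unadjusted p under 0.05), and 5 of 27 (18.5%) did not overlap, against 22.3%. Among 58 member regions with a peak, 1 was gained (1.72%) and 0 were lost relative to PFF, against 2.64% and 1.94% of all regions. Relative to PBS 1 of 60 was gained (1.67%) and 0 were lost, against 2.59% and 0.991%. With so few member regions these shares were near the background. The 6 regions without overlap relative to PFF were the start sites of Hspa1a, Hspa8, Hsph1 and Hsp90aa1, higher with the ASO, and the Dnajb6 region chr5:29817449-29817780 and the Bag3 intronic region, lower with it.

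The gained region was the same in both comparisons, an 89 bp stretch in an intron of Dnajb6 at chr5:29762450-29762538, 26806 bp from the outermost start and 1643 bp from the nearest annotated one. It was called in 3 of 3 PFF+Rab5 ASO libraries, at percentiles 39.4, 39.3 and 50.4 with 13, 12 and 14 fragments at the summit, and in 0 of the other 9 libraries. The median peak had 16 to 18 fragments, and the region was no longer gained when peaks below a -log10 q of 5 were left out. The whole region is shown on the plus strand because it was called in every library of 1 group and in none of the others.
Dnajb6 intron: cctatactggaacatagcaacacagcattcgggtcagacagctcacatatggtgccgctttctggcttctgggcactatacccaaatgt

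Under a looser rule, with 2 or more of 3 libraries of one group called and no more than 1 of 3 of the other, the members' shares were set beside those of all regions. Gained and lost members were 3 and 4 of 59 with PFF against PBS (10.7% and 6.36% of all regions), 2 and 2 of 54 with PFF+MLi-2 against PFF (4.97% and 13.1%) and 3 and 4 of 59 with PFF+MLi-2 against PBS (5.68% and 9.26%). With PFF+Rab5 ASO they were 7 and 1 of 58 against PFF (11.4% and 10.8%) and 8 and 3 of 60 against PBS (13% and 8.25%). In the order above the gained and lost shares of members were 5.08% and 6.78%, 3.70% and 3.70%, 5.08% and 6.78%, 12.1% and 1.72%, and 13.3% and 5%. The members gained with the ASO were near the background. Those lost with PFF+MLi-2 or PFF+Rab5 ASO against PFF, and those gained with PFF against PBS, were below it. These shares rest on 1 to 8 regions each and were not tested.

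Among heights, the Rab5 ASO effects that ranked first relative to PFF were -0.87 (SE 0.43, 95% interval -1.84 to 0.10, adjusted p = 0.285) at the Hspa4 upstream region, 0.66 (SE 0.26, 95% interval 0.08 to 1.24, adjusted p = 0.181) at chr7:128535195-128535534, 11748 bp into Bag3, and that of the Bag3 intronic region described above. At the region 11748 bp into Bag3 the percentiles were 51.6, 52.9 and 65.2 in the PBS libraries, 57.8, 25.1 and 46.8 with PFF, 52.9, 44.6 and 10.2 with PFF+MLi-2 and 70.8, 57.4 and 61.4 with PFF+Rab5 ASO, and the PFF+Rab5 ASO range overlapped the PFF range. Leaving out 1 PFF library gave 0.39 at this region (replicate 2) and -0.52 at the Hspa4 upstream region (replicate 3). Relative to PBS the effect was -0.88 (SE 0.29, 95% interval -1.52 to -0.24, adjusted p = 0.139) at the Hsp90aa1 upstream region, next in rank was the Hspa1a shoulder, and chr5:149642480-149642653, 6190 bp upstream of Hsph1, had an effect of 0.71 (SE 0.33, 95% interval -0.04 to 1.45, adjusted p = 0.291) on percentiles of 60.4, 66.8 and 76.2 in the PBS libraries, 71.6, 83.9 and 85.1 with PFF, 82.2, 39.6 and 69.8 with PFF+MLi-2 and 92.9, 86.2 and 68.2 with PFF+Rab5 ASO. The Hsph1 effect was 0.43 without replicate 1 of PFF+Rab5 ASO and 0.45 without replicate 1 of PBS. None of these passed. The 5 regions without overlap against PBS were the Hspa1a shoulder, the Hspa1b upstream region, the Bag3 start site and, outside the naming rule and picked once their values were known, chr17:34981722-34982279 and chr5:29772767-29773113, whose effects were -0.26 and 0.28 (limma, adjusted p = 0.549 and 0.578).

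**Figure D5:**
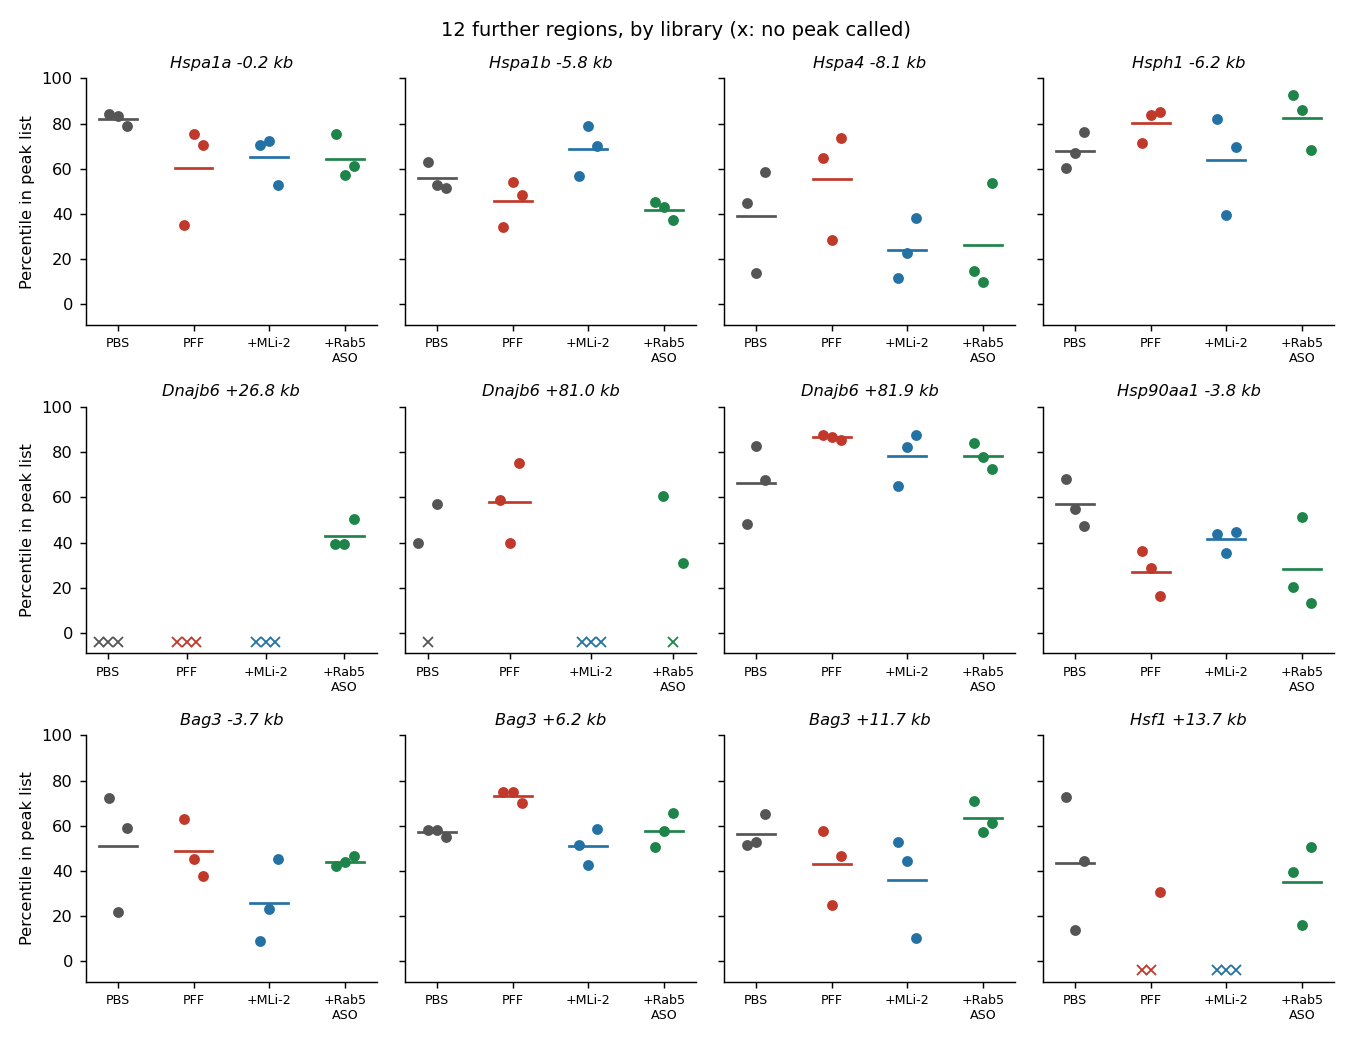
Percentile of the fold within each library's list for the 12 further regions named by effect or by call, titled by gene and distance of the centre from the outermost start site in kb. Dots are libraries, bars group means where all 3 libraries have a peak, and crosses libraries without a peak; the Bag3 region 6178 bp from the start is highest with PFF and the Dnajb6 region 26806 bp from the start is called only with PFF+Rab5 ASO.

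The rest of the chaperone system was counted from a list. This list of 45 further chaperones and co-chaperones, among them small heat shock proteins, mitochondrial chaperonins and other J-domain and BAG proteins, had a start site region called in all 12 libraries for 42 genes and in 0 libraries for 1 gene, at mean percentiles from 49.1 to 99.6 with a median of 93.9. Hspd1 and Hspe1 share the same start site region, which is counted for each of them. None of the 42 passed limma in any of the 5 comparisons or in the 4-group test, and of the 45 genes 0 had a start site region gained or lost. With at most 0.593% of all start site regions called by limma in a comparison, the limma counts too were near the background. No share of start site regions gained or lost over all genes was computed to set beside the other count. Their median effect was -0.07 with PFF against PBS, 0.13 with PFF+MLi-2 against PFF and 0.10 with PFF+Rab5 ASO against PFF, on the same side of 0 as the median of all start site regions.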

How the data were processed

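ATAC-seq was done on 12 libraries of mouse cortical neurons in 4 groups of 3, taken from the titles. The authors trimmed reads with Trim Galore 0.6.7, aligned them with Bowtie2 2.5.1 to GRCm38 and called peaks with MACS2 2.2.7.1, per the labels and their processing notes. Calling options, duplicate removal and Tn5 shifting are not given in the sources used here. One narrowPeak file per library was deposited, with no pooling of replicates. In each deposited file column 7 is the fold enrichment of the fragment pileup over the local background at the summit, columns 8 and 9 are the −log10 p and −log10 q, column 5 is a score, and column 10 is another value, the summit offset. The score was 10 times the −log10 q, rounded down, for 99.98% of the 1916151 peaks. Read depths are unknown. A whole-number summit pileup was recovered from the fold and −log10 p for 100% of peaks (tolerance 0.01).

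Peaks of all libraries were merged at 1 bp of overlap and assigned to genes with GENCODE vM21 on GRCm38, the build of the files. Percentiles were taken within each list. Ranks over the 72465 regions called in all 12 libraries were turned into normal scores and compared with limma 3.58.1 (R 4.3.3), on the 6 libraries of each pairwise comparison and on all 12 for the 4-group F test, with Benjamini-Hochberg adjustment over all regions and a threshold of 0.05. Requiring a peak in all 12 libraries leaves out weak regions. A rank describes a peak relative to its list, so a shift shared by all peaks is not seen. Regions gained or lost have a peak in 3 of 3 libraries of one group and 0 of 3 of the other. The limma step was tested on simulated data for PFF against PBS, with 200 of 20000 regions shifted by a score of 2. It called 100% of these and 14 unshifted regions, and 0 regions in data without a shift. The largest member effect for PFF against PBS was -0.94, at the Hsp90aa1 upstream region. The simulated shift was larger in size than that effect. The simulation therefore cannot show how often shifts of the observed sizes would be called, and smaller shifts were not tested. Python 3.11.15 with pandas 2.3.3, numpy 2.4.6, scipy 1.17.1, pysam 0.24.0 and matplotlib 3.10.9 was used for the rest.

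Named regions are the start site region of each gene, any region called, gained or lost, and the 3 largest effects of each comparison. The members and lists were chosen with earlier results of these data known. Alternatives covered the peak threshold, list length, merging, window, rank, gained and lost rule, replicate block, the libraries fitted and each replicate left out.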

Additional observations from a re-analysis of the deposited data

How the results depend on the processing

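No member region was called by limma in a pairwise comparison under any alternative run, with 0 in each after leaving out any 1 library, and the 15 effects of named regions kept their sign in every setting run, though several moved by over 1.5 times without 1 library. In the 4-group test 1 region, upstream of Hspa1b, was called with ranks of −log10 p, and 0 to 1 without single libraries. With the replicate number as a replicate block 0 member regions were called in every comparison. Libraries of the same number correlated at 0.00513 to 0.0788 in their deviations from the group means (18 pairs, mean 0.0325, none over 0.1), against -0.0706 to 0.0279 (mean -0.0162) for 36 pairs of different number. All same-number values were above 0, but no source says that a number marks a shared pregnancy, and the numbers were not taken to pair the libraries.

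Counts of gained, lost and non-overlapping regions are small and moved more. Shares over all regions were computed for the main settings and the rule of at least 2 of 3 only. The other counts below show movement and cannot be read against a background. Under a rule of at least 2 of 3 against at most 1 of 3, gained and lost regions were 3 and 4 for PFF against PBS, 2 and 2 for PFF+MLi-2 against PFF, 7 and 1 for PFF+Rab5 ASO against PFF, 3 and 4 for PFF+MLi-2 against PBS, and 8 and 3 for PFF+Rab5 ASO against PBS. Lost regions for PFF+Rab5 ASO against PFF were 1 with peaks of −log10 q of 5 or more, 1 with equal numbers of top peaks and 1 with merging at 50 bp. For PFF+MLi-2 against PBS 0 were lost at −log10 q of 5 or more. For PFF+Rab5 ASO against PBS 0 were gained at that threshold, and 2 were gained and 1 lost with equal numbers of top peaks. With a 2 kb upstream window 3, 3, 1 and 3 regions did not overlap for PFF against PBS, PFF+MLi-2 against PFF, PFF+MLi-2 against PBS and PFF+Rab5 ASO against PBS, because fewer regions are members. For PFF+MLi-2 against PBS the count was 1 at −log10 q of 5 or more and 4 with ranks of −log10 p.

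Without single libraries the ranges were, for PFF against PBS, 0 to 1 gained, 0 to 1 lost and 6 to 9 without overlap. They were 0 to 1, 1 to 1 and 7 to 13 for PFF+MLi-2 against PFF, and 1 to 3, 0 to 1 and 7 to 13 for PFF+Rab5 ASO against PFF. Against PBS they were 0 to 1, 1 to 3 and 3 to 6 for PFF+MLi-2, and 1 to 2, 0 to 1 and 6 to 11 for PFF+Rab5 ASO. With 2 libraries in a group fewer values have to be separated. Of 40 group means of start site percentiles, 26 moved by more than 1 SD when −log10 p was ranked (72.4 to 99.4) and 16 with equal numbers of top peaks (68.0 to 97.1). Read depths are unknown, and 3 libraries a group limit the precision, as the intervals given show.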
